A study of Mus musculus with 8 samples.

Results

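The kappa light-chain CDR3 sequences that recurred between samples were 356 of the 2408 distinct complete sequences read from 8 pro-B cell samples. A sequence was complete when its translation began with cysteine and ended with phenylalanine, and the shared ones were chosen by 1 measured value, the number of samples with the same bases, at 2 or more. The other 2052 sequences occurred in 1 sample and are called single-sample sequences. Pro-B cells with surface B220 and Cd43 but without IgM or CD25 had been sorted from the bone marrow of untreated mice aged 8 weeks. The 4 control samples and the 4 Setd2 knockout samples came from 1 sequencing batch. Setd2 encodes a methyltransferase of histone H3. The sources used here give no strain, no Cre driver or other means of deletion, and no animal behind a replicate number, so p-values measure only a spread between samples that may be technical. The files hold immunoglobulin sequences only, so neither pro-B markers nor the loss of Setd2 could be checked on them.

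The CDR3 of a kappa chain is the stretch where a V segment is joined to a J segment, and it forms the centre of the antigen-binding site. Kappa joins are made by cutting at the segment ends, trimming them and ligating them. Unlike heavy chains they have no D segment, and they usually receive few added bases. Kappa genes are rearranged mainly after the pro-B stage, and mature B cells carry base changes in the V segment when they have been through a germinal centre.

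The 12 sequences held by the most samples are printed 5′ to 3′ on the coding strand to show what a shared sequence looks like. Of the 13 sequences in 6 samples, the 6 with the most reads in total are among them, and the 7 others had 12 to 30 reads. Capitals mark the longest run at the 3′ end that equals the end of a Jk segment, and lower case marks the remainder. All 12 were spelled without a gap or a mismatch by 1 germline V end followed by 1 germline J end.
IGKV1-117 to IGKJ4, 8 samples: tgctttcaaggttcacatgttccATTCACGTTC
IGKV12-46 to IGKJ1, 8 samples: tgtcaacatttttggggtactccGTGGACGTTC
IGKV12-46 to IGKJ2, 8 samples: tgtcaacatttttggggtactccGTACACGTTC
IGKV1-117 to IGKJ2, 7 samples: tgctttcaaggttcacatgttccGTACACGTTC
IGKV10-96 to IGKJ1, 7 samples: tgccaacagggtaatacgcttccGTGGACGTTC
IGKV10-96 to IGKJ2, 7 samples: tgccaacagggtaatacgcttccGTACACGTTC
IGKV1-110 to IGKJ2, 6 samples: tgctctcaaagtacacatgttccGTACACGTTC
IGKV1-117 to IGKJ1, 6 samples: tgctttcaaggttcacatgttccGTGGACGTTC
IGKV1-117 to IGKJ1, second join, 6 samples: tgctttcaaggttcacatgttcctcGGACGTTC
IGKV6-15 to IGKJ5, 6 samples: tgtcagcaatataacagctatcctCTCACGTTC
IGKV4-71 to IGKJ2, IGKJ4 or IGKJ5, 6 samples: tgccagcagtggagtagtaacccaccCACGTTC
IGKV4-57 to IGKJ4, 6 samples: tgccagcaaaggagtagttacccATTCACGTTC

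The V part of each sequence is the 3′ end of a V segment and the J part the 5′ end of a J segment, both coding and both on chromosome 6. In mm10, per the deposited segment tables, IGKV1-117 spans chr6:68121091-68121825, IGKV10-96 chr6:68631965-68632430, IGKV1-110 chr6:68270527-68271265 and IGKV12-46 chr6:69764523-69764992. IGKV4-71 spans chr6:69243160-69243688, IGKV4-57 chr6:69575975-69576500 and IGKV6-15 chr6:70406469-70406992. The J segments follow at chr6:70722562-70722599 for IGKJ1, chr6:70722916-70722954 for IGKJ2, chr6:70723548-70723585 for IGKJ4 and chr6:70723886-70723923 for IGKJ5. Germline ends were taken from the GENCODE M21 transcripts.

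Each control had 84230 to 118807 reads on the light-chain locus, and each knockout 5956 to 144978. Controls 1 to 4 gave 516, 727, 543 and 713 complete kappa sequences, and knockouts 1 to 4 gave 144, 157, 82 and 248. CDR3-spanning reads behind them ran from 1360 to 2112 per control and from 169 to 864 per knockout. Knockout 3 was the shallowest sample and held 56 of the shared sequences, whereas control 4 held 205.

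Control 3 and knockout 3 stood apart from the other pairs in their heavy chains. They had 8 complete heavy-chain CDR3 sequences in common, of 30 to 51 bases, each with 1 read in knockout 3 and with 1 to 8 reads in control 3. That is 1.65 sequences per 10000 pairs of sequences, and the next pair, knockout 3 with control 4, reached 0.171 with 1 sequence in common. These 2 samples also had 4 kappa sequences in common that no germline join spelled, which is 4.82 per 10000 pairs against at most 1.43 in any other pair. Only 6 of the 356 shared sequences were held by these 2 samples alone, and 286 sequences were still shared when both samples were left out. Values without these samples, or without this pair, are given for several of the comparisons below. They are not given for the counts by genotype or for sequences looked up in the other genotype, among others.

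The number of samples holding a sequence fell off steeply. Of the shared sequences 176 were in 2 samples, 73 in 3, 56 in 4, 32 in 5, 13 in 6, 3 in 7 and 3 in all 8. At the edge of the rule, sequences in 2 samples had a median total of 5 CDR3-spanning reads and single-sample sequences a median of 2. Over all shared sequences the median total was 9 reads and the largest 96. A single read in at least 1 of its samples stood behind 168 of the 356, and 14 had 1 read in each sample that held them.

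Shared sequences were mostly plain germline joins. A join was called exact when the whole CDR3 was a V end followed directly by a J end, searched over 149 kappa V genes and 5 Jk segments. Exact joins made up 289 of the 356 shared sequences, or 81.2% (exact binomial 95% interval 76.7 to 85.1), and 253 of the 2052 single-sample sequences, or 12.3% (10.9 to 13.8). The share was 67.0% for sequences in 2 samples (59.6 to 73.9) and 87.7% for those in 3 (77.9 to 94.2). All 107 sequences in 4 or more samples were exact joins (lower limit 96.6%). The intervals cover counting error only. Of the 67 shared sequences that were not exact, 59 differed from a germline join at 1 base and 8 at 2 or more, and 959 of the single-sample sequences differed at 2 or more.

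**Figure D1:**
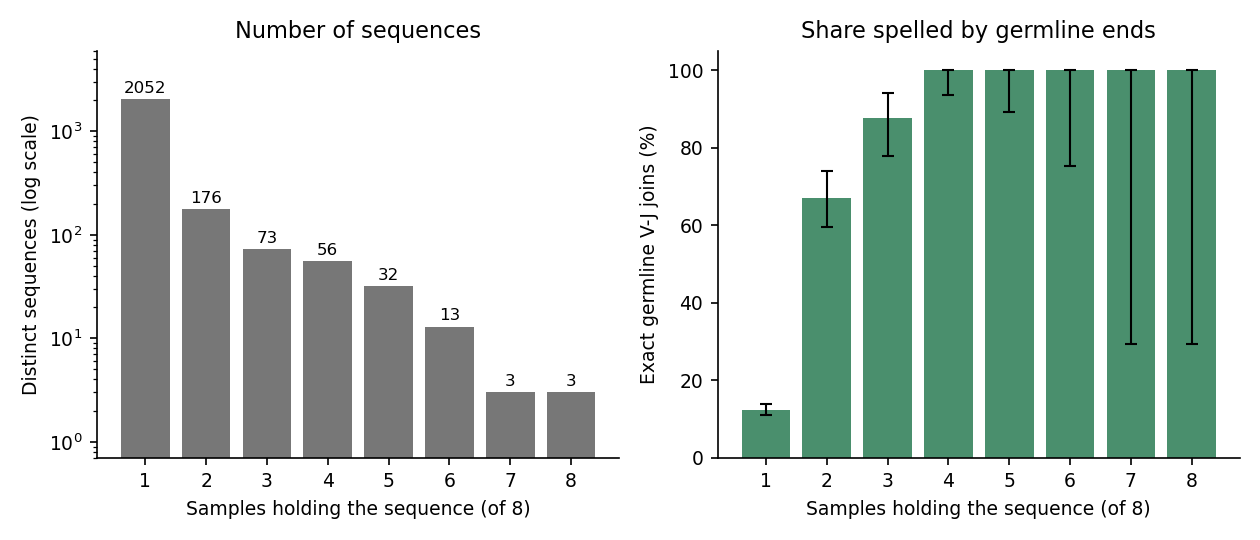
Number of distinct kappa CDR3 sequences by the number of samples holding them (left, log scale) and the percent of them that are exact germline V-J joins (right, bars with exact binomial 95% intervals). The count falls from 2052 sequences in 1 sample to 3 in all 8, and the percent rises from 12.3 to 100 at 4 samples and above.

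The same contrast held within each sample. The germline share was here the percent of a sample's sequences with 0 bases unmatched by the ends of the V genes that the sample's own contig lists and of the J segments. Among shared sequences, controls 1 to 4 had 81.7, 78.8, 78.1 and 81.8%, and knockouts 1 to 4 had 96.7, 92.8, 86.8 and 88.0%. Among single-sample sequences it was 14.0, 8.49, 11.3 and 11.9% in the controls and 38.3, 12.5, 34.8 and 15.8% in the knockouts. Every sample was thus far higher among its shared sequences, and no shared value overlapped a single-sample value. The difference averaged 67.2 ± 8.63 percentage points (SD, n = 8 samples), positive in 8 of 8 samples (two-sided exact sign-flip permutation test, p = 0.00781, the smallest that 8 samples allow, Benjamini-Hochberg adjusted p = 0.0130 over 5 readouts). Samples hold some of the same sequences, so the 8 differences are not fully independent. Without control 3 and knockout 3 it was 68.6 points, with an exact p of 0.0313, the smallest that 6 samples allow, and an adjusted p of 0.0521.

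Bases matched by neither end were also fewer in shared sequences. They averaged 1.54 per shared and 8.59 per single-sample sequence, a difference of -7.04 ± 2.23 bases (SD, n = 8, lower in 8 of 8 samples, exact adjusted p = 0.0130). Without control 3 and knockout 3 it was -7.31 bases (exact adjusted p = 0.0521). This count starts at the first mismatch from either side, so 1 changed base deep in the V part leaves many bases unmatched. Counted as mismatches to the closest join over all V genes, a measure added after the data were seen, the means were 0.130 per shared and 1.52 per single-sample sequence (exact sign-flip p = 0.00781, lower in 8 of 8 samples).

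Reads per sequence were higher for shared sequences. Mean log2 CDR3-spanning reads were 1.47 among shared and 0.91 among single-sample sequences, a difference of 0.56 ± 0.19 (SD, n = 8, higher in 8 of 8 samples, exact adjusted p = 0.0130). A sequence with more reads is also more readily seen in another sample, so this difference is not separate from the rule. Among exact joins alone, added after the data were seen, the difference was 0.42 with an adjusted p of 0.0781, so it no longer passed. Without control 3 and knockout 3 it was 0.59 (exact adjusted p = 0.0521).

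The most widely held joins included the largest sequence of 4 samples. The highest of the 12 above equalled the highest read number of any sequence in knockouts 1, 3 and 4 and in control 1, at 18, 5, 50 and 15 reads. Of the 12, 6 were taken from the 13 sequences in 6 samples by total reads, so this follows in part from the choice. The highest values of knockouts 1 and 4 belong to those 6. Mean reads per sample that held the sequence were 2.44 for single-sample sequences and 6.04, 6.67 and 6.29 for those in 6, 7 and 8 samples. The IGKV1-117 to IGKJ4 join had 6, 5, 26 and 9 reads in controls 1 to 4, against 7, 3, 3 and 3 in the 4 knockouts in the same order. Control 3 was the highest and the other 7 samples lay between 3 and 9. The IGKV12-46 to IGKJ1 join had 15, 4, 10 and 3 reads in the controls and 8, 8, 2 and 7 in the knockouts, so the groups overlapped. The IGKV12-46 to IGKJ2 join, the third that all 8 samples held, had 2, 2, 7 and 9 against 3, 3, 4 and 2 reads.

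The largest total belonged to the IGKV1-110 to IGKJ2 join, with 96 reads. It had 14, 13, 9 and 8 reads in controls 1 to 4. Knockouts 1 to 4 had 2, 0, 0 and 50. Knockout 4 alone gave 52.1% of its reads. Over the 356 shared sequences the sample with the most reads held a median of 55.6% of a sequence's total.

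**Figure D2:**
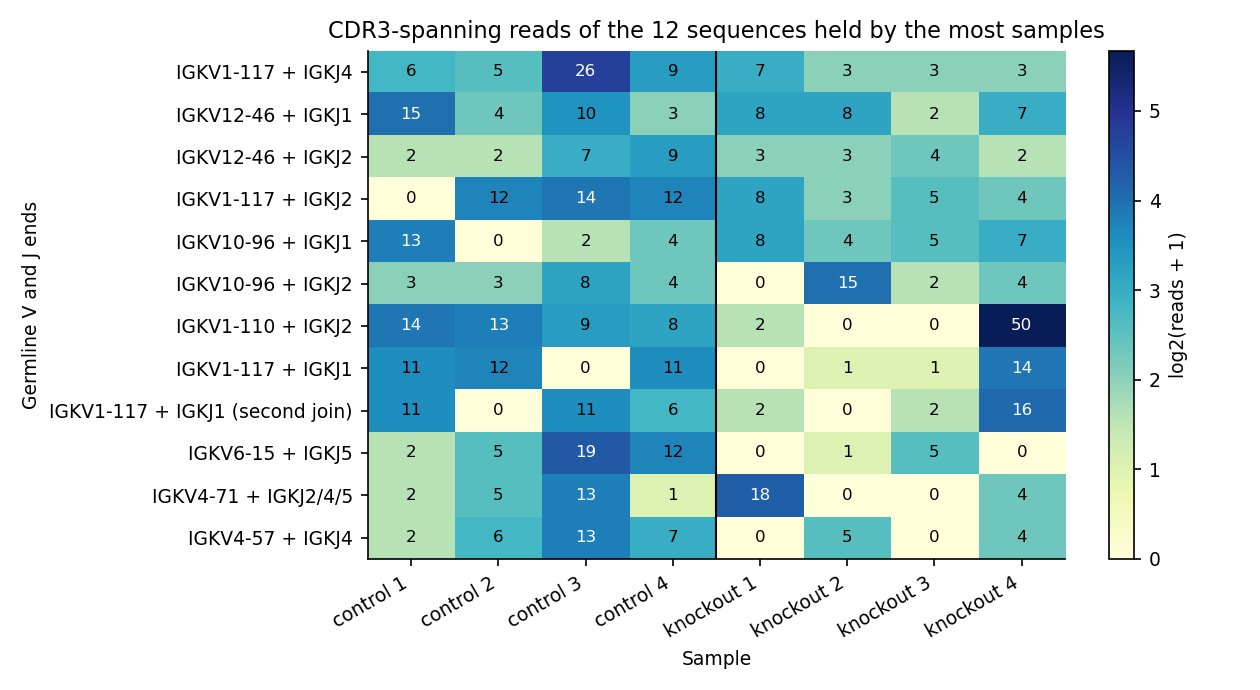
CDR3-spanning reads of the 12 sequences held by the most samples, by sample (columns, controls left and knockouts right of the line), coloured by log2(reads + 1) with the reads printed. All 12 have reads in both groups, and the highest cell is 50 reads of the IGKV1-110 to IGKJ2 join in knockout 4.

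The 3 shared sequences with the largest share of their reads in 1 sample, among those with 10 or more reads, are printed because their presence elsewhere rests on 1 read. All 3 are exact joins. A join of IGKV3-4 or IGKV3-5 to IGKJ1, with 11 reads in control 1 and 1 in control 2, tied with the last 2 and is not printed, ties being settled by the order of the letters.
IGKV6-13 to IGKJ5: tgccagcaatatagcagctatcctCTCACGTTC
IGKV8-28 to IGKJ2: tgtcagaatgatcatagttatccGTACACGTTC
IGKV4-90 to IGKJ4: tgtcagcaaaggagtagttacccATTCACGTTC
The IGKV6-13 join had 30 reads in control 3 and 1 in knockout 3, the pair of samples that also had heavy-chain sequences in common. The IGKV8-28 join had 11 reads in control 4 and 1 in control 1. The IGKV4-90 join had 11 reads in control 1 and 1 in control 3.

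Both genotypes held most of the shared sequences. Of the 356, 211 (59.3%) occurred in at least 1 control and 1 knockout, 142 (39.9%) in controls only and 3 in knockouts only. Exact joins were 191 of the 211, 95 of the 142 and all 3 of the 3. The knockouts had far fewer sequences, so the 142 and the 3 are counts at unequal size and were not tested.

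The 3 found in 2 knockouts and no control are printed first and then 3 in 4 controls and no knockout that had the most reads. A join of IGKV3-12 to IGKJ5 with 4, 3, 4 and 4 reads in controls 1 to 4 tied with the last of these at 15 reads in all and is not printed.
IGKV12-41 to IGKJ4, knockouts 1 and 2: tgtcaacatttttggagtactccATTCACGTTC
IGKV3-2 to IGKJ5, knockouts 1 and 3: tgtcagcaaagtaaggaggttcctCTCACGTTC
IGKV12-44 to IGKJ4, knockouts 3 and 4: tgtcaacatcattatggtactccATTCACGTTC
IGKV19-93 to IGKJ1, 4 controls: tgtctacagtatgataatctGTGGACGTTC
IGKV3-2 to IGKJ1, 4 controls: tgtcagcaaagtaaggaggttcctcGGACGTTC
IGKV1-88 to IGKJ1, 4 controls: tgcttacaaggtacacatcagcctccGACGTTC
The IGKV12-41 join had 11 and 2 reads in its knockouts, the IGKV3-2 to IGKJ5 join 5 and 3, and the IGKV12-44 join 2 and 2. The IGKV19-93 join had 3, 6, 1 and 11 reads in controls 1 to 4. The IGKV3-2 to IGKJ1 join had 7, 3, 2 and 4, and the IGKV1-88 join 1, 4, 5 and 5. IGKV3-2 thus gave a join to IGKJ5 among the knockout-only and a join to IGKJ1 among the control-only sequences. All 6 were exact.

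Sequences were then classed in 1 genotype and looked up in the other, which took no part in the classing. Of the exact joins held by 1, 2, 3 and 4 controls, 23.3, 45.7, 70.6 and 81.8% were found in at least 1 knockout, over 249, 127, 68 and 33 sequences. Of the sequences that were not exact and were held by 1 control, 17 of 1554 (1.09%) were found in a knockout, and 3 of 44 (6.82%) of those held by 2. In the other direction, 124 of 186 exact joins held by 1 knockout (66.7%) were found in a control, 50 of 53 held by 2 (94.3%), all 11 held by 3 and all 6 held by 4. Of 282 sequences in 1 knockout that were not exact, 20 (7.09%) were found in a control. The values for controls held in knockouts are lower, and the knockouts had fewer sequences in which to look. Control 3 and knockout 3 are included in these counts.

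**Figure D3:**
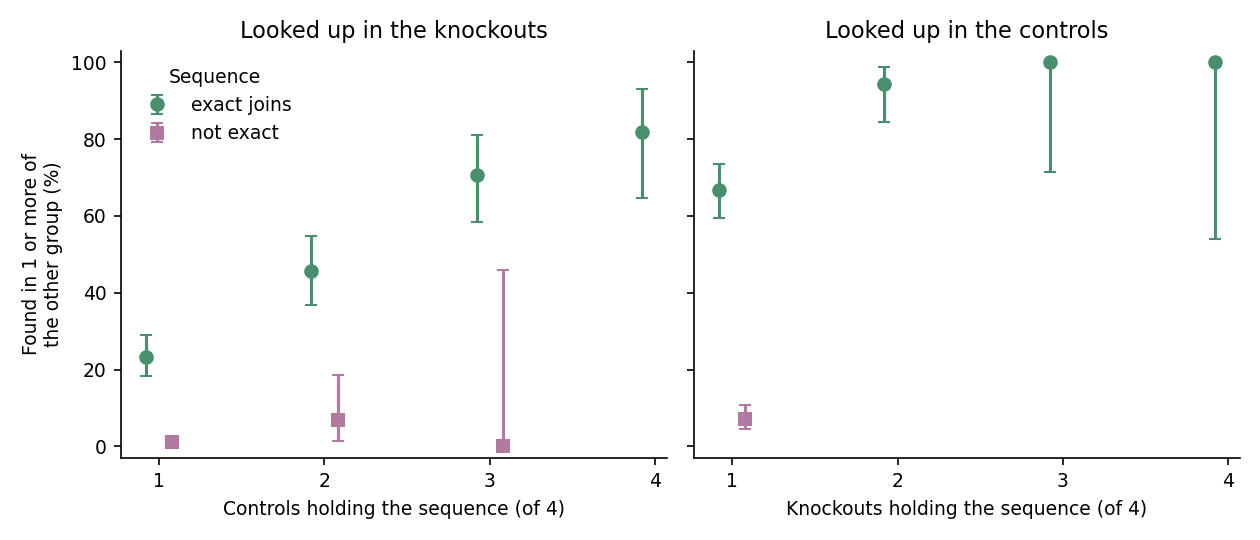
Percent of kappa CDR3 sequences found in at least 1 sample of the other genotype, by the number of samples of the first genotype that hold them, for exact germline joins (circles) and other sequences (squares), with exact binomial 95% intervals. For exact joins the percent rises from 23.3 to 81.8 in the left panel and from 66.7 to 100 in the right, and for the others it stays at 7.09 or below.

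The share of a sample's sequences that were shared was 38.2, 27.9, 30.6 and 28.8% in controls 1 to 4, against 65.3, 44.6, 68.3 and 35.1% in knockouts 1 to 4. Knockout 4 lay below control 1, and the other knockouts lay above every control. The means were 31.4 ± 4.68% and 53.3 ± 16.1% (SD, n = 4 each), and the difference of 22.0 points had an exact two-sided permutation p of 0.0571, adjusted 0.0571 over 3 comparisons. The smallest p for 4 against 4 samples is 0.0286. Shared percent and pair overlap count the same presence in samples that the rule used, so their p-values are description only. Without knockout 4 the difference was 28.4 points with an adjusted p of 0.0429, and without control 3 and knockout 3 it was 18.1 points (exact p = 0.100). A small sample is set against larger ones in this share, so the overlap of pairs was also scaled to their sizes.

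Scaled overlap was the number of sequences in both samples per 10000 pairs of sequences, the product of the numbers in both samples. It averaged 2.60 over the 6 control pairs (2.13 to 3.21), 10.3 over the 6 knockout pairs (3.596 to 16.9) and 4.83 over the 16 mixed pairs (2.496 to 8.27). Every knockout pair lay above every control pair, but the scaling did not free the overlap of sample size. Among knockout pairs it was highest, at 16.9, for knockouts 1 and 3 with 144 and 82 sequences. The lowest, at 3.596, was for knockouts 2 and 4 with 157 and 248. The part of sample size in the difference between genotypes was not tested. The difference of 7.70 between knockout and control pairs had an exact permutation p of 0.0571 over samples and did not pass. Pairs within a genotype exceeded mixed pairs by 1.61 (exact p = 0.0571), and this difference was -0.10 without knockout 1 and -0.01 without knockout 3. Without knockout 4 the difference between knockout and control pairs was 11.6 (exact adjusted p = 0.0429). Without control 3 and knockout 3 it was 5.13 (exact p = 0.200).

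Among exact joins alone the ratio between pair types was smaller and the difference was not. Knockout pairs stood at 1.41 times the control pairs, against 3.96 times for all kappa sequences, and the difference was 8.21 against 7.70 per 10000 pairs. Their scaled overlap was 20.1 ± 0.66 in control pairs, 28.3 ± 7.13 in knockout pairs and 22.9 ± 2.78 in mixed pairs (SD over pairs, which share samples). Knockout pairs ran from 17.7 to 37.4 and so overlapped the control pairs at 19.6 to 21.1, and the difference had an exact p of 0.0857. Among the other sequences it was 0.64 in control pairs, 0 in all 6 knockout pairs and 0.75 in mixed pairs. The mixed mean was 0.48 without the pair of control 3 and knockout 3, and 0.40 without knockout 3, so it then lay below the control pairs. Such other sequences in common numbered 4 to 18 per control pair and 0 to 4 per mixed pair. With 82 to 248 complete sequences of any kind per knockout, the 0 in knockout pairs lies near the floor. The division into exact joins and other sequences was made after the data were seen.

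Heavy-chain CDR3 sequences of the same samples recurred far less. Only 34 of 3846 distinct complete heavy-chain sequences (0.884%) were in 2 or more samples, against 14.8% for kappa, and none was in more than 3. The sequences common to control 3 and knockout 3 were 8 of these 34. The scaled overlap of heavy chains averaged 0.091 per 10000 pairs over the 28 pairs of samples, 15 of which were at 0, and that of kappa averaged 5.52. Without the pair of control 3 and knockout 3 the heavy-chain mean was 0.033 and the kappa mean 5.50, and without knockout 3 they were 0.035 and 4.32.

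**Figure D4:**
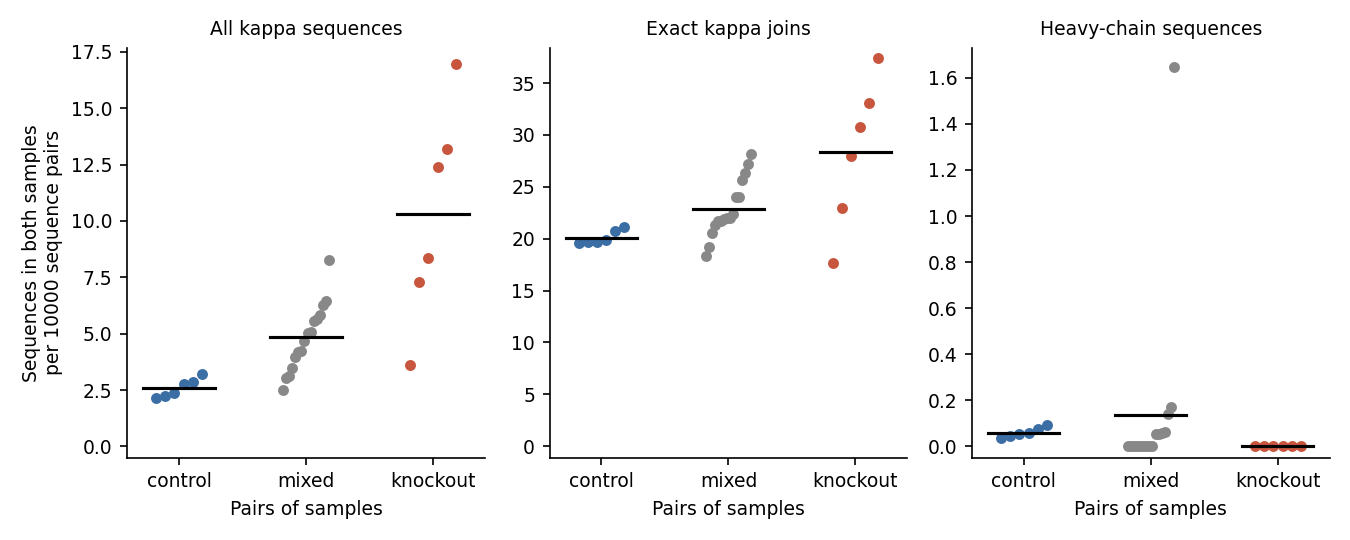
Number of CDR3 sequences in both samples per 10000 sequence pairs for all kappa sequences, exact kappa joins and heavy-chain sequences, with 1 point per pair of samples and a line at the mean. Kappa means are 2.60, 4.83 and 10.3 for control, mixed and knockout pairs, exact joins lie between 17.7 and 37.4, and the single high heavy-chain point at 1.65 is control 3 with knockout 3.

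The germline share of shared sequences was higher in knockouts, by an amount that missed the threshold after adjustment. It was 80.1 ± 1.91% in controls and 91.0 ± 4.55% in knockouts (SD, n = 4 each), and every knockout lay above every control. The difference of 10.96 points had an exact permutation p of 0.0286, the smallest possible, and an adjusted p of 0.0714 over 5 readouts. Without control 3 and knockout 3 it was 9.11 points (exact p = 0.100, the smallest that 3 against 3 samples allow). Unmatched bases were 2.11 ± 0.27 in controls and 0.97 ± 0.52 in knockouts, also without overlap (exact p = 0.0286, adjusted 0.0714). Their difference was -0.87 bases when control 3 and knockout 3 were left out (exact p = 0.200). In measures over all V genes that were added after the data were seen, exact joins were 84.0 ± 0.49% of shared sequences in controls and 93.2 ± 2.86% in knockouts, and mean mismatches were 0.180 ± 0.017 and 0.080 ± 0.024. Both passed in that family of 3 readouts (exact p = 0.0286, adjusted 0.0429), whereas the first, put in place of the germline share among the 5 readouts, had an adjusted p of 0.0714. Mean log2 reads of shared sequences were 1.58 in controls and 1.36 in knockouts (exact p = 0.229). The gap between shared and single-sample sequences was 68.7 points in controls and 65.7 in knockouts, and that difference did not pass (exact p = 0.714). Knockouts had 82 to 248 complete sequences each and controls 516 to 727. Exact joins were 90.5% of the shared sequences held by both genotypes and 66.9% of those in controls only. The part of sample size in these genotype differences was not tested.

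Constant-region reads of switched heavy chains also stood apart by genotype, though the order of single samples was not wholly that of the exact joins. Reads on heavy constant regions other than IGHM were 53.2, 58.6, 52.0 and 53.7% of all heavy constant-region reads in controls 1 to 4, against 32.5, 41.8, 7.31 and 44.6% in knockouts 1 to 4. Exact joins were 41.1, 29.2, 33.5 and 32.7% of all kappa sequences in the controls and 76.4, 49.0, 72.0 and 41.5% in the knockouts. IGHG, which marks class-switched cells, held 20.8 to 35.5% in controls and 2.66 to 14.9% in knockouts, without overlap. IGHA held 17.1 to 33.3% and 4.02 to 34.1%, IGHE at most 0.0702%, and IGHD, expressed by mature naive cells, 0.651 to 0.977% and 0.467 to 0.759%. The lowest share off IGHM was in knockout 3, and the highest IGHA share was in knockout 4. The germline shares of shared sequences in knockouts 3 and 4 were close, at 86.8 and 88.0%. Exact joins over all V genes were 91.1 and 90.8% of their shared sequences. None of the 4 markers was at 0 in any sample. Their part in the germline share and in the overlap of samples was not tested, and a change in the number of switched cells cannot be told apart from a change in the RNA per cell.

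**Figure D5:**
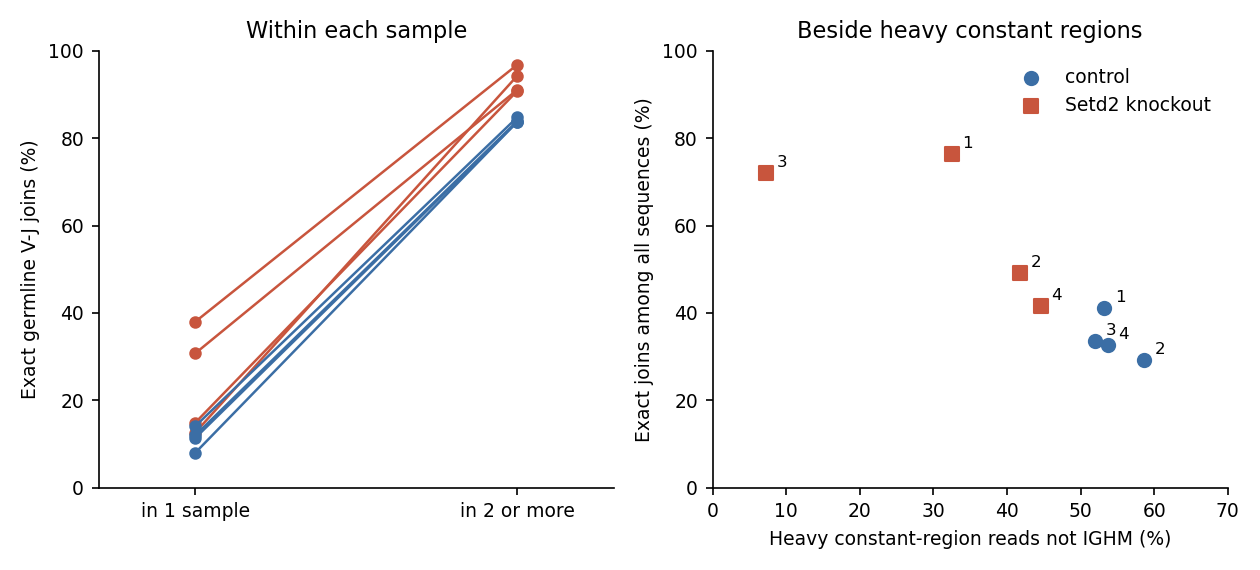
Percent of exact germline joins among single-sample and shared kappa sequences of each sample (left, 1 line per sample) and percent of exact joins among all kappa sequences against the percent of heavy constant-region reads that are not IGHM (right, 1 numbered point per sample). Every line rises, and knockouts 1 and 3 lie highest in the right panel at 76.4 and 72.0% with 32.5 and 7.31% of constant-region reads off IGHM.

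CDR3 length differed in its spread more than in its mean. A length of 33 bases was held by 321 of the 356 shared sequences (90.2%) and by 83.2% of single-sample sequences. Shared sequences were otherwise 30 bases in 25 cases, 36 in 8 and 39 in 2, and single-sample sequences ran from 18 to 48 bases. The mean length per sample was 32.9 bases in both classes, with a difference of 0.008 ± 0.348 bases (SD, n = 8, exact p = 0.977). The percent of 33 bases, a measure added after the data were seen, averaged 92.1% among shared and 79.0% among single-sample sequences and was higher among shared in 8 of 8 samples (exact sign-flip p = 0.00781). The values were 90.1 against 85.2% in controls and 94.1 against 72.8% in knockouts, and this gap differed between genotypes by an exact p of 0.0286, adjusted 0.0857 over the 3 added readouts. Among exact joins it was 89.3% for shared and 62.1% for single-sample sequences.

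The V genes of shared sequences were spread over the kappa locus. A single V gene was listed for 97 of the 356, from 25 genes, and the other shared sequences listed several close relatives, none, or different genes in different samples. The 6 genes with the most were IGKV1-110 with 19, IGKV10-96 with 11, IGKV5-48 with 10, IGKV1-135 with 9, and IGKV16-104 and IGKV6-15 with 5 each. Together they gave 60.8% of these shared sequences and 50.5% of the single-sample sequences that list 1 V gene. IGKV1-110 was also the V gene with the most segment reads, at 7.96 ± 1.87% of kappa V reads in controls and 11.9 ± 9.36% in knockouts, and IGKV10-96 ranked 3rd with 6.28 ± 1.53% and 5.88 ± 3.45%. IGKV16-104, with 0.773 ± 0.436% and 1.74 ± 2.29%, ranked 24th, and 5 of its 20 sequences were shared. IGKV6-15, which ranked 7th, had 5 of 70. IGKV5-48 lies at chr6:69726573-69727125, IGKV1-135 at chr6:67609745-67610508 and IGKV16-104 at chr6:68425605-68426072. Reads of near-identical V genes can be divided between them by the assembly, so counts of single V genes are uncertain.

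A V end usually recurred with more than 1 J segment. Of the exact shared joins, 265 had an end that fits 1 Jk segment only, and they used 69 V ends, where V genes with the same end count once. All of IGKJ1, IGKJ2, IGKJ4 and IGKJ5 were joined to 20 of these ends, 3 of them to 15, 2 to 21 and 1 to 13. IGKV1-110 and IGKV10-96 each gave 11 shared joins and IGKV1-117 gave 9, all with the 4 J segments. IGKJ1 ended 92 of the 265, IGKJ2 69, IGKJ5 64 and IGKJ4 40. IGKJ3, which lacks function in the mouse, ended none.

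J gene labels of the contigs gave IGKJ1 to 27.2 ± 2.40% of shared and 32.6 ± 6.86% of single-sample sequences (SD, n = 8). The difference of -5.41 points, negative in 6 of 8 samples, missed the threshold (exact p = 0.0469, adjusted 0.0586). IGKJ2 had 36.0% of shared and 35.3% of single-sample sequences, IGKJ5 22.1 and 23.4%, and IGKJ4 14.7 and 8.74%, and these 3 were not tested. The label equalled the J segment read from the bases after the CDR3 in 85.7% of 3042 sequences, and 383 of the others exchanged IGKJ1 and IGKJ2. By those bases IGKJ1 had 32.4% of shared and 36.5% of single-sample sequences (exact p = 0.328). The difference by label was -4.03 points when control 3 and knockout 3 were left out (exact adjusted p = 0.156).

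The same CDR3 could come from joins to different J segments. Of the 356 shared sequences, 43 were followed by more than 1 J segment, and 40 of these were exact joins. For 7 the contigs read on into IGKJ2, IGKJ4 and IGKJ5, of which the IGKV6-15 join among the 12 above is one. A pair of the others is printed because a J end of the letters CACGTTC, common to IGKJ2, IGKJ4 and IGKJ5, closes both.
IGKV2-137, 5 samples: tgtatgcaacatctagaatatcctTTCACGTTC
IGKV4-53, 5 samples: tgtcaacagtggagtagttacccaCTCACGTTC
The IGKV2-137 join had 7, 1, 0 and 4 reads in controls 1 to 4, against 10, 8, 0 and 0 in knockouts 1 to 4. The IGKV4-53 join had 0, 0, 6 and 5 in controls and 5, 0, 2 and 6 in knockouts. One shared sequence thus need not stand for 1 kind of join. In 59 of the 289 exact shared joins at least 1 base at the junction could be read from either the V or the J end, and in 47 of the 253 exact single-sample joins.

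The 67 shared sequences that no germline join spelled were mostly 1 base away from one that did. An exact shared sequence lay at 1 changed base from 53 of them (79.1%). In 51 of the 59 with 1 mismatch the changed base had 1 possible place, and all 51 places lay inside the V part. The codon changed was AGC or AGT in 19 of the 51 (37.3%) and in 181 of 684 such changes of single-sample sequences (26.5%), whereas these codons made up 11.5% of V codons of exact shared sequences. A G-to-C change was the commonest kind in shared sequences, with 12 of 51, of which 10 lay in AGC or AGT, and G-to-A was the commonest in single-sample sequences with 94 of 684. These shares are a description and were not tested. A base that differs between the strain of these mice and the reference would also be counted here.

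A single change, G17C, accounted for 8 of the 51, with positions counted from 1 at the first base of the CDR3. It was also the commonest change among single-sample sequences, with 42 of 684. It was chosen after its values were seen and is printed, with the changed base in capitals, because it recurred on 7 different V ends.
IGKV6-15 to IGKJ2: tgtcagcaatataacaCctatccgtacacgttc
IGKV6-15 to IGKJ5: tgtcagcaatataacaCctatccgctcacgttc
IGKV6-13 to IGKJ2: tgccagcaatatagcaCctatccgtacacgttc
IGKV6-23 to IGKJ2: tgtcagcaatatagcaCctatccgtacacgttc
IGKV5-48 to IGKJ4: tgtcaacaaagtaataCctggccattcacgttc
IGKV12-41 to IGKJ2: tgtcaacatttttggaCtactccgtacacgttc
IGKV6-25 or IGKV8-24 to IGKJ5: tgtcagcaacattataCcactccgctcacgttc
IGKV13-84 or IGKV13-85 to IGKJ2: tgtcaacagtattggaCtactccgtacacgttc
The changed codon is the 6th of the CDR3 and is AGC or AGT in each germline end. Controls held all 8, as they held all 67 shared sequences that were not exact, and 20 of the 67 were also in a knockout. Among all 356 shared sequences only 3 were in no control, and 211 (59.3%) were in both genotypes. The knockouts had fewer sequences in which to look. Of the 8 only the IGKV12-41 sequence was also in a knockout, with 2 reads in knockout 4. The IGKV6-15 to IGKJ2 sequence had the most reads, with 3, 5, 0 and 8 in controls 1 to 4. The IGKV6-15 to IGKJ5 sequence had 1 read in control 1 and 1 in control 2.

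Single-sample sequences also lay close to shared ones. Of the 2052, 757 (36.9%) were 1 base from a shared sequence. Within a sample, a sequence 1 base away with more reads was present for 264 of 1078 shared (24.5%) and 472 of 2052 single-sample occurrences (23.0%). When such occurrences were left out, an alternative added after the data were seen, the germline share of shared sequences exceeded that of single-sample sequences by 65.7 points (exact adjusted p = 0.0130). In the same alternative the germline share of shared sequences was 9.25 points higher in knockouts than in controls. That difference then passed (exact adjusted p = 0.0476), and it passed in no other alternative run.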

How the data were processed

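Poly-A RNA of the 8 samples was sequenced as 75-base single-end reads, per the labels' protocols, and aligned with STAR 2.5.1 to mm10, per the submitters' processing notes. The series' design text names TRUST as the assembler, of a version not stated there. The deposited segment tables give read counts per gene segment, unnormalized. The deposited clonal expression score multiplied by the larger of the CDR3 length and 39 bases (48 for heavy chains) came out whole, within 0.01, for 100% of contigs, and is called CDR3-spanning reads. Complete sequences were 3130 of 3954 contigs, and no sequence had 2 contigs in a sample. No V gene was listed for 206, and these have no germline share. The whole library's depth is unknown.

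Shared and single-sample means were compared within samples by exact sign flips, and genotypes by exact permutation (70 arrangements), both two-sided, with Benjamini-Hochberg adjustment over 5 readouts, or over 3 for the shared percent and pair overlaps, and a threshold of 0.05. J segments were read from the 12 bases after the CDR3. Named sequences were the 12 in most samples, 3 each in 1 genotype only, and the 3 most concentrated in 1 sample. Named V genes were the 6 with most shared sequences among those that list 1 V gene. Members and lists were chosen with earlier results of these data known. Scripts were tested on simulated data. Python 3.11.15, numpy 2.4.6, pandas 2.3.3, scipy 1.17.1 and matplotlib 3.10.9 were used.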

Additional observations from a re-analysis of the deposited data

Results flagged for a closer look

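Among the shared sequences of the controls, the percent of exact joins over all V genes was 84.8 in control 1, set off from 83.7 to 83.9 in the other 3 by more than their spread allows in a test for outlying samples. This was 1 of 28 groups of values tested, and chance gives about 1 in 20.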

How the results depend on the processing

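The higher germline share, the fewer unmatched bases and the higher log2 reads of shared sequences kept their direction in every alternative run, and left-out samples gave 65.2 to 69.0 points for the germline share (adjusted p 0.0195 to 0.0260). Without control 3 and knockout 3 these 3 values were 68.6 points, -7.31 bases and 0.59 with an adjusted p of 0.0521 each, where 6 samples allow no p under 0.0313. A sequence with more reads is more readily seen in another sample, so the difference in log2 reads is not separate from the rule. Among exact joins alone it was 0.42 and no longer passed. The cause was not tested. Depth limits every count of shared sequences, since a sequence at 1 read can be missed in a shallow sample, and knockout 3 has 169 CDR3-spanning reads.

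IGKJ1 was lower in shared than in single-sample sequences in each alternative, and the difference passed at -4.80 points with a V family in common, -9.62 with 2 or more reads, -4.74 with a V gene listed, -4.86 for 3 or more samples and -6.61 among exact joins, whereas left-out samples gave -6.25 to -3.53 points (passing without knockout 4, control 1 or control 2). The cause was not tested. The IGKJ1 difference between genotypes, near 0, turned to -1.26 for equal amino-acid sequences, -3.80 with 2 or more reads, -1.01 for 3 or more samples, -0.70 by the bases after the CDR3, -0.32 among exact joins and -0.54 without control 3 and knockout 3. Left-out samples gave -0.45 to 2.35, with -0.20 without knockout 2, -0.13 without knockout 4, -0.45 without control 1 and -0.22 without control 3. The length difference, near 0, turned to -0.039 bases for equal amino-acid sequences, -0.121 with 2 or more reads, -0.054 with a V gene listed, -0.011 for 3 or more samples and -0.00086 without control 3 and knockout 3. Left-out samples gave -0.069 to 0.088, with -0.065 without knockout 1, -0.069 without knockout 2, -0.0020 without control 3 and -0.031 without control 4.

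Overlap of pairs within genotypes against mixed pairs passed at 1.81 with a V family in common, 3.73 with 2 or more reads and 1.99 with a V gene listed. Knockout against control pairs passed at 7.85, 14.1 and 8.79 in the same 3 alternatives. Left-out samples gave -0.10 to 3.19 for the first, with -0.10 without knockout 1 and -0.01 without knockout 3, and 5.16 to 11.6 for the second. The shared percent differed by 17.2 to 28.4 points, and the highest of each of these last 2 ranges, without knockout 4, passed. Overlap and shared percent count the presence that the rule used, so a pass in them is description only. Without close variants the genotypes differed by 9.25 points in the germline share, -1.11 unmatched bases and -0.41 in log2 reads of shared sequences. All 3 passed there, in an alternative added after the data were seen, and in no other alternative run. For 3 or more samples the first 2 were 5.87 points and -0.80 bases (exact adjusted p = 0.143 each). With a V family in common they were 9.39 points and -0.88 bases (exact adjusted p = 0.143 each). The genotype difference in the germline gap between shared and single-sample sequences turned to 5.87 points for equal amino-acid sequences, while left-out samples gave -8.40 to 0.999, with 0.999 without knockout 3. The same difference in log2 reads turned to 0.031 for equal amino-acid sequences. Over all alternatives 253 values kept direction and side of the threshold, 24 turned, 19 passed newly and 4 no longer passed.

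V gene usage showed no clear pairing of the samples by replicate number. Deviations of V gene usage from the group means correlated at 0.12, -0.06, 0.08 and 0.09 for numbers 1 to 4, over 96 V genes. Control 3 and knockout 3, which carry the same number, nevertheless had 8 heavy-chain sequences in common. Whether samples of the same number were handled together was not tested. With the replicate block, the germline share of shared sequences differed by 10.96 points between genotypes (exact p = 0.125, the smallest that 4 pairs allow, adjusted 0.313) and the shared percent by 21.95 points (p = 0.125). Summing over contigs was not run, because no sequence had 2 contigs in a sample.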
